A study of Mus musculus with 8 samples.

Results

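The 9 genes described here are grouped under digestion of dietary sugars, sugar transport across the intestinal epithelium and sugar handling inside the cell. They include the hydrolases Lct and Treh, the sugar transporters Slc5a1, Slc2a5 and Slc2a2, and Slc5a4a, a member of the Slc5a1 carrier family. The others are the fructose kinase Khk and the gluconeogenic enzymes Fbp1 and G6pc. The members were all probe sets of the deposited table whose annotation named exactly 1 of these 9 genes. This gave 10 of the 45101 probe sets on the array, 2 for Slc5a1 and 1 for each of the other genes, and no probe set named a member together with another gene. RNA from intestinal crypt cells of C57BL/6 mice had been hybridized to 8 Affymetrix arrays. Cells were sorted by surface EphB2, detected with an antibody, into EphB2 Low, EphB2 Medium and EphB2 High fractions with 2 arrays each, or by the fluorescence of an Lgr5-EGFP knock-in allele into Lgr5 Low and Lgr5 High fractions with 1 array each. The Lgr5 fractions came from mice carrying that allele, in which EGFP is driven from the Lgr5 locus. Replicates 1 and 2 of the EphB2 groups were hybridized at 2 different times, 1 array of each group at each time, and the Lgr5 arrays were hybridized together at another. The labels do not say whether the replicates came from separate animals, how many animals were pooled, or their age, so the p-values reflect only how far these samples spread, and that spread may be technical.

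EphB2 is a receptor that is most abundant on cells at the crypt base and declines towards the villus, and Lgr5 marks the stem cells of the crypt base. Dietary disaccharides are cut at the brush border of absorptive enterocytes. Glucose and galactose enter through sodium-coupled carriers, fructose enters through a facilitative carrier, and a further facilitative carrier releases sugars towards the blood. Inside the cell fructose is phosphorylated by ketohexokinase, and fructose bisphosphatase and glucose-6-phosphatase catalyse late steps of glucose synthesis. These genes are known as products of the villus enterocyte, and the EphB2 sort asks where in the crypt their transcripts begin.

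The arrays had median log2 values between 6.12 and 6.20 and 99th percentiles between 13.34 and 13.43. Values are log2 intensities normalized by the authors with RMA, which estimates 1 value per probe set from its probes. No detection calls were used here, so a low value has no stated floor, and fold changes and tests compare arrays within a probe set. Where a value is set beside the median or a percentile of its array, that places the probe set on the array and does not order genes by their amount of RNA. The epithelial marker list was bright, with a median between 13.6 and 13.9 on every array. Of its 7 genes only Krt20 was called, 2.77 log2 higher in EphB2 Low than in EphB2 High (limma, adjusted p = 0.000439). Krt20 read 10.72 and 10.70 in EphB2 High and 9.15 in Lgr5 High. The medians of the lymphocyte list (8 of 8 genes measured), the stroma list (8 of 8) and the red blood cell list (2 of 5) lay between 4.77 and 5.30, between 4.35 and 4.81, and between 3.32 and 3.74, although the stroma marker Vim read 10.80 and 9.70 in EphB2 Low, 10.92 and 9.22 in EphB2 Medium, 9.77 and 8.45 in EphB2 High, 11.05 in Lgr5 Low and 7.59 in Lgr5 High. The lymphocyte marker Cd52 read 6.94 and 6.86 in EphB2 Low against 5.33 and 5.03 in EphB2 High (1.72 log2 higher, limma, adjusted p = 0.00221). Cd79b was 0.99 log2 lower in EphB2 Low (adjusted p = 0.0283), a call lost when single arrays were left out, and the other 6 lymphocyte markers did not pass. The sorts ran in the labelled direction: Lgr5 was 4.25 ± 0.26 log2 lower in EphB2 Low than in EphB2 High cells (limma, adjusted p = 0.000595), and its values were 5.75 in Lgr5 Low and 10.15 in Lgr5 High cells.

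Between EphB2 Low and EphB2 High cells, 9 of the 10 probe sets, covering 8 of the 9 genes, were higher in EphB2 Low at an adjusted p under 0.05 (limma, 2-sided, Benjamini-Hochberg over all 45037 tested probe sets), where 11.9% of all probe sets were called higher and 27.4% were called in either direction. The median difference of the 10 probe sets was 4.12 log2, against 0.01 log2 for all probe sets. The members were chosen with earlier results of these data known, so these shares give scale and test no enrichment. The genes fell into a steep group of 6 (G6pc, Slc2a2, Slc5a4a, Lct, Treh and Slc2a5), which were between 16.9-fold and 77.2-fold higher in EphB2 Low, a shallow pair (Slc5a1 and Khk), between 2.81-fold and 3.82-fold higher, and Fbp1, whose 1.19-fold difference did not pass the test. All 9 calls stayed when any 1 of the 6 arrays was left out. In RNA from sorted fractions, more cells of a type and more RNA per cell cannot be told apart.

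**Figure D1:**
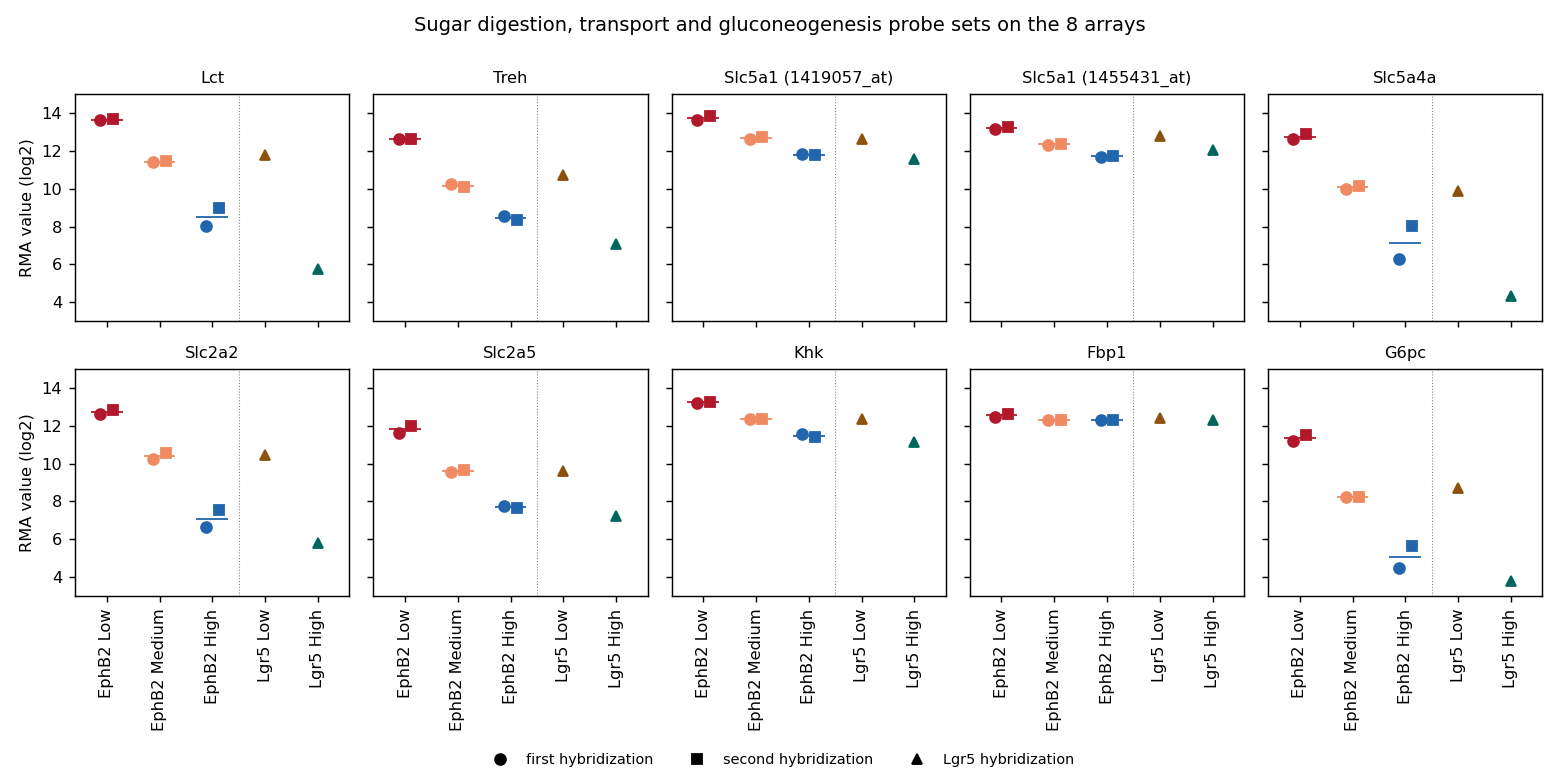
Log2 intensity of each of the 10 probe sets on every array, 1 panel per probe set, with EphB2 Low, Medium and High and then Lgr5 Low and High from left to right; points are single arrays and bars the EphB2 group means. The bars descend from EphB2 Low to EphB2 High in every panel, least in that of Fbp1, and the widest gaps between replicates lie in EphB2 High for Slc5a4a, G6pc, Lct and Slc2a2.

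Lct encodes lactase, the brush border enzyme that splits milk sugar. Its probe set 1439479_at read 13.61 and 13.69 log2 in EphB2 Low cells, 11.39 and 11.45 in EphB2 Medium cells, and 8.03 and 8.98 in EphB2 High cells. The 3 groups were well separated, and the High pair was the only loose one, with an SD of 0.67 log2 (n = 2) against 0.05 in Low and 0.04 in Medium. The difference between EphB2 Low and EphB2 High was 5.14 ± 0.30 log2 (SE), a 35.3-fold difference with an adjusted p of 0.000567. Treh encodes trehalase, which splits the trehalose of fungi and insects. Its values were 12.61 and 12.62 log2 in EphB2 Low, 10.23 and 10.10 in EphB2 Medium, and 8.55 and 8.34 in EphB2 High. The replicates lay close together in all 3 groups, closer than those of Lct in High cells. Treh was 4.17 ± 0.14 log2 higher in EphB2 Low than in EphB2 High, an 18-fold difference (adjusted p = 0.000235). EphB2 High cells thus held 2.83% of the linear Lct signal of EphB2 Low cells and 5.57% of the linear Treh signal.

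Slc5a1 encodes SGLT1, the sodium-coupled carrier that takes glucose and galactose in from the gut lumen. Its brighter probe set, 1419057_at, read 13.64 and 13.83 log2 in EphB2 Low, 12.61 and 12.71 in EphB2 Medium, and 11.84 and 11.76 in EphB2 High. The groups did not overlap, yet even the High arrays were far above their array medians, and the Low arrays exceeded the 99th percentile of all probe sets. The difference between Low and High was 1.94 ± 0.14 log2 (3.82-fold, adjusted p = 0.000888). The second probe set, 1455431_at, gave 13.15 and 13.25 log2 in EphB2 Low, 12.33 and 12.37 in EphB2 Medium, and 11.69 and 11.72 in EphB2 High. It showed the same order with a smaller difference, 1.49 ± 0.12 log2 (2.81-fold, adjusted p = 0.00133). EphB2 High cells kept 26.2% of the linear EphB2 Low signal on the first probe set and 35.6% on the second.

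Slc5a4a belongs to the same carrier family, and whether its product carries sugar was not tested. It is a close relative of the neighbouring Slc5a4b. How far the probes of each also bind the other transcript was not tested. Slc5a4a values were 12.60 and 12.87 log2 in EphB2 Low, 10.00 and 10.13 in EphB2 Medium, and 6.28 and 8.01 in EphB2 High. The EphB2 High arrays differed by 1.73 log2 between the hybridizations, the widest replicate gap among the 10 probe sets. The Low minus High difference of 5.59 ± 0.53 log2 (48.3-fold, adjusted p = 0.00184) was 4.73 without EphB2 High replicate 1 and 6.46 without EphB2 High replicate 2, so its size in fold rests on which of these arrays is used. Slc2a5 encodes GLUT5, the fructose carrier of the brush border. It read 11.63 and 11.98 log2 in EphB2 Low, 9.54 and 9.64 in EphB2 Medium, and 7.78 and 7.68 in EphB2 High. The High arrays lay within 0.10 log2 of each other. The Low minus High difference was 4.08 ± 0.16 log2 (16.9-fold, adjusted p = 0.000347).

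Slc2a2 encodes GLUT2, the facilitative carrier through which sugars leave the enterocyte towards the blood. Its values were 12.61 and 12.85 log2 in EphB2 Low, 10.22 and 10.57 in EphB2 Medium, and 6.67 and 7.53 in EphB2 High. The groups were well separated at both steps, and the second High array was the brighter one. The difference between Low and High was 5.63 ± 0.30 log2 (49.7-fold, adjusted p = 0.000509), and EphB2 High cells held 2.01% of the linear EphB2 Low signal. Khk encodes ketohexokinase, which traps fructose in the cell as its phosphate. It read 13.19 and 13.28 log2 in EphB2 Low, 12.36 and 12.37 in EphB2 Medium, and 11.54 and 11.42 in EphB2 High. Like Slc5a1, Khk was bright in EphB2 High cells and differed by little compared with the carriers around it: 1.75 ± 0.13 log2 (3.37-fold, adjusted p = 0.000938).

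Fbp1 encodes fructose bisphosphatase, which removes a phosphate on the path to glucose 6-phosphate. Its values were 12.45 and 12.64 log2 in EphB2 Low, 12.31 and 12.30 in EphB2 Medium, and 12.30 and 12.28 in EphB2 High. The gene was bright in every fraction, and EphB2 Medium replicate 2 and EphB2 High replicate 1 had the same value to 2 decimals. The Low minus High difference of 0.25 ± 0.13 log2 missed the threshold (adjusted p = 0.228), with a 95% interval of -0.07 to 0.58 log2 whose upper end is below the differences of the other members. G6pc encodes the catalytic subunit of glucose-6-phosphatase, which releases free glucose and is known from liver, kidney and intestine. It read 11.18 and 11.49 log2 in EphB2 Low, 8.21 and 8.25 in EphB2 Medium, and 4.50 and 5.63 in EphB2 High. On both High arrays G6pc lay below the array median. Its difference of 6.27 ± 0.36 log2 (77.2-fold, adjusted p = 0.000549) and the 1.3% of the linear EphB2 Low signal in EphB2 High cells rest on those dim High values, whose background is not known. Fbp1 and G6pc, enzymes of one pathway, thus had intervals for the Low minus High difference that did not overlap, -0.07 to 0.58 log2 for Fbp1 and 5.37 to 7.17 log2 for G6pc.

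The order EphB2 Low above EphB2 Medium above EphB2 High without overlap of arrays was clear for 9 of 10 probe sets. Fbp1 met it only by a margin beyond the second decimal, since EphB2 Medium replicate 2 and EphB2 High replicate 1 both read 12.30 log2. Counted strictly, 10.2% of all probe sets have this order. Between EphB2 Low and EphB2 Medium, 9 of 10 probe sets were called higher in Low, against 6.78% of all probe sets (15.3% in either direction), with a median of 2.22 log2 against 0.02 log2 for all. The calls ranged from 0.85 ± 0.12 log2 for the second Slc5a1 probe set (adjusted p = 0.0139) to 3.11 ± 0.36 log2 for G6pc (adjusted p = 0.00918). Lct differed by 2.23 ± 0.30 log2, Slc2a2 by 2.34 ± 0.30 and Slc5a4a by 2.67 ± 0.53. For Fbp1 the difference was 0.24 log2 (adjusted p = 0.307). Treh (2.45 ± 0.14 log2, adjusted p = 0.00275) and Slc2a5 (2.22 ± 0.16 log2, adjusted p = 0.00392) were the members whose calls stayed whichever array was left out: without either EphB2 Medium array only these 2 of the 10 passed, and without EphB2 Low replicate 2 the count was 4.

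Between EphB2 Medium and EphB2 High, 5 of 10 probe sets were called higher in Medium, where 0.282% of all probe sets were called higher and 135 of 45037 were called in either direction. The 5 were Slc2a2 (3.30 ± 0.30 log2, 9.84-fold, adjusted p = 0.0321), G6pc (3.16 ± 0.36, 8.96-fold, adjusted p = 0.0493), Lct (2.91 ± 0.30, 7.53-fold, adjusted p = 0.0452), Slc2a5 (1.86 ± 0.16, 3.63-fold, adjusted p = 0.0314) and Treh (1.72 ± 0.14, 3.3-fold, adjusted p = 0.0314). The Slc5a4a difference was as wide, 2.92 ± 0.53 log2, but missed the threshold (adjusted p = 0.138); it was 2.06 log2 without EphB2 High replicate 1 and 3.79 without EphB2 High replicate 2. Khk (0.88 ± 0.13 log2, adjusted p = 0.0852) and the Slc5a1 probe sets (0.86 ± 0.14, adjusted p = 0.106, and 0.64 ± 0.12, adjusted p = 0.158) also missed it, and Fbp1 stood at 0.02 log2 (adjusted p = 0.985). With the hybridization as a replicate block the count was 3 of 10, since Lct and G6pc each had an adjusted p of 0.0543. Leaving out any 1 of the 6 arrays left 0 of 10 members and 0 of all probe sets called, so the test of this step rests on all 6 arrays; 9 of 10 members had an unadjusted p under 0.05, as had 10.0% of all probe sets. Within the first and the second hybridization the Fbp1 difference at this step was only 0.0078 and 0.0228 log2.

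**Figure D2:**
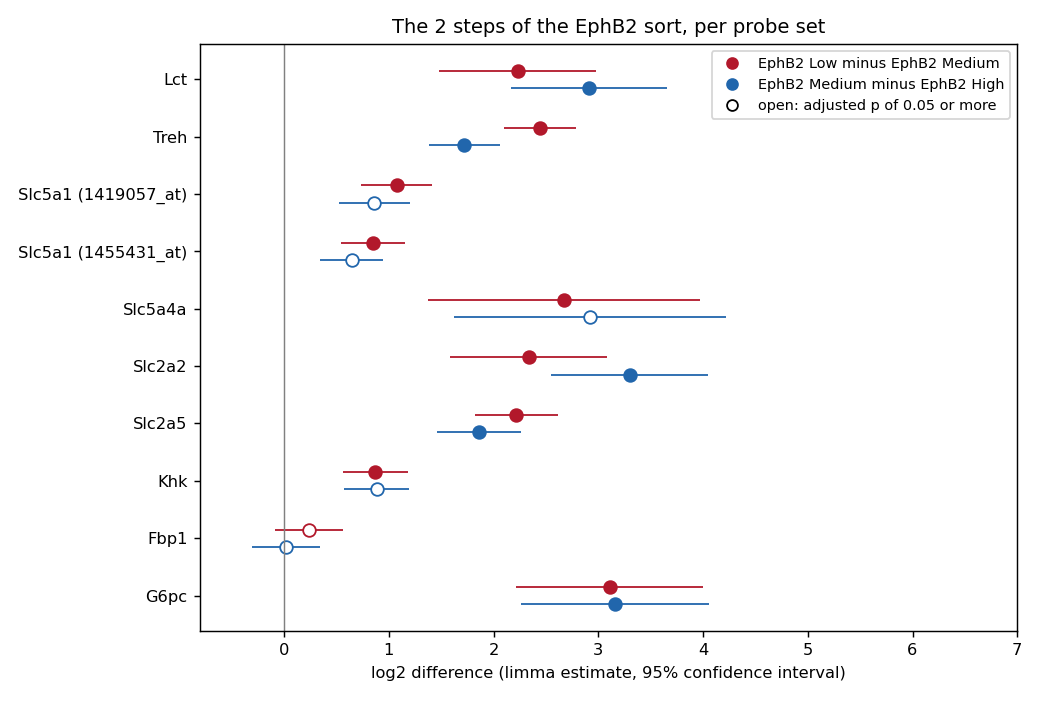
Log2 difference of EphB2 Low minus EphB2 Medium and of EphB2 Medium minus EphB2 High for each of the 10 probe sets; points are the limma estimates, filled where the adjusted p was under 0.05, bars their 95% intervals, and the vertical line is no difference. The intervals of the 2 steps overlap for all 10 probe sets except Treh, and both intervals of Fbp1 cross 0.

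The share of the whole log2 difference that had been reached in EphB2 Medium cells was close to the middle for every member but Fbp1. It was 58.55% for Slc2a2, 56.64% for Lct, 52.28% for Slc5a4a, 50.44% for G6pc, 50.32% for Khk, 45.60% for Slc2a5, 44.45% and 43.17% for the probe sets of Slc5a1, and 41.31% for Treh. For Slc5a4a it was 58.82% in the first hybridization and 43.76% in the second, for G6pc 55.52% and 44.64%, and for Lct 60.21% and 52.40%. The share moved less for Slc2a2 (59.83% and 57.13%), Treh (41.45% and 41.17%) and Slc2a5 (45.63% and 45.57%). On the linear scale EphB2 Medium cells held 11.6% of the EphB2 Low signal for G6pc, 15.7% for Slc5a4a, 18.4% for Treh, 19.8% for Slc2a2, 21.3% for Lct and 21.5% for Slc2a5, against 47.5% and 55.6% for Slc5a1 and 54.7% for Khk. Tested directly, the Low minus Medium step differed from the Medium minus High step for 0 of 10 members and 0 of 45037 probe sets after adjustment (limma), while 1 of 10 members and 8.97% of all probe sets had an unadjusted p under 0.05. That member was Treh, whose Low minus Medium step was 0.72 ± 0.24 log2 larger (unadjusted p = 0.0243, adjusted p = 0.527). For Slc2a2 the estimate was -0.96 ± 0.53 log2 (adjusted p = 0.637) and for Lct -0.68 ± 0.53 (adjusted p = 0.75), so neither step was shown to be the larger one for any member.

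The replicates of EphB2 High, hybridized at different times, differed more for some members than for others. The second High array was brighter than the first by 1.73 log2 for Slc5a4a, 1.14 for G6pc, 0.95 for Lct and 0.86 for Slc2a2. For Treh, Khk, Slc2a5 and the first Slc5a1 probe set the second array was instead the dimmer one, by at most 0.20 log2. The median of the enterocyte list (13 of 14 genes measured) was 11.26 and 11.24 log2 on these 2 arrays. Single markers moved in both directions between these arrays: Alpi read 11.09 on the first and 10.09 on the second, Apoa1 11.26 and 11.80, Mep1a 8.26 and 8.87, and the ileal Fabp6 11.33 and 12.33. The enteroendocrine median was 10.72 and 9.55 and the tuft median 9.07 and 8.23, and the part of these differences in the members' gaps was not tested. On the first High array Slc5a4a (6.28) and G6pc (4.50) were near or below the array median of 6.17.

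The enterocyte list moved along the sort in the same order as the members. Its median was 13.60 and 13.64 log2 in EphB2 Low, 12.46 and 12.44 in EphB2 Medium, and 11.26 and 11.24 in EphB2 High, with 12.86 in Lgr5 Low and 10.04 in Lgr5 High. All 13 measured markers were called higher in EphB2 Low than in EphB2 High, 10 in Low over Medium and 5 in Medium over High, where 13.2%, 7.78% and 0.511% of the lead probe sets of all 18194 genes were called higher (a gene's lead probe set is its brightest), with a median Low minus High difference of 2.71 log2. The Low over High calls of Fabp1, Fabp2 and Dpp4 were lost without at least 1 array. In Low over Medium only the calls of Apoa4, Apoc3 and Mep1b stayed whichever array was left out. The enterocyte calls in Medium over High were all lost whichever array was left out. The crypt base stem cell list (8 of 8 measured) ran opposite to the enterocyte list. Its medians were 9.29 and 8.79 in EphB2 Low, 10.63 and 10.68 in EphB2 Medium, and 11.35 and 11.64 in EphB2 High. Other cell types also moved between EphB2 Low and EphB2 High, where 13.2% of all lead probe sets were called higher and 19.6% lower. In EphB2 Low, 5 of 6 measured Paneth markers were lower, and 4 of 7 tuft markers were lower and 1 was higher. Of 8 enteroendocrine markers 4 were higher, of 7 goblet markers 3 were higher, and of 8 lymphocyte markers 1 was higher and 1 lower. The calls of Mmp7, Defa3, Pla2g2a, Dclk1, Sct, Sst and Cd52 stayed whichever array was left out. Each of the others, with all 3 goblet calls among them, was lost without at least 1 array. In Lgr5 Low, 7 of 8 enteroendocrine, 4 of 7 goblet and 4 of 7 tuft markers were at least 2-fold higher than in Lgr5 High, against 5.07% of all lead probe sets. How far the markers of any of these cell types account for the members' differences was not tested. Of the 9 measured genes that mark segments of the small intestine or the colon, 3 were called higher in EphB2 Low: Fabp6, a bile acid binding protein of the ileum, by 1.90 log2 (adjusted p = 0.00991, and 0.0605 without EphB2 Low replicate 2), the ileal bile acid carrier Slc10a2 by 2.07 log2 (adjusted p = 0.0227, lost without either EphB2 High array, up to 0.104), and Aqp8 by 2.22 log2 (adjusted p = 0.00256). Fabp6 was bright, at 13.62 and 13.85 log2 in EphB2 Low. Slc10a2 read 3.86 and 5.39 in EphB2 Low and between 2.42 and 2.63 in EphB2 Medium and High, all below the array medians. Aqp8 read 5.8 and 6.3 in EphB2 Low and between 3.66 and 4.53 in EphB2 Medium and High. How much of such dim values is background is not known. The part of these 3 genes in the members' values was not tested either.

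In the Lgr5 sort, with 1 array per group and no test, 8 of 10 probe sets were at least 2-fold higher in Lgr5 Low than in Lgr5 High cells. Of all probe sets 4.68% were at least 2-fold higher and 6.99% differed at least 2-fold in either direction. The median difference of the members was 3.01 log2, against 0.05 log2 for all probe sets. Lct read 11.80 log2 in Lgr5 Low and 5.76 in Lgr5 High (66.2-fold). Slc5a4a read 9.87 and 4.34 (46.3-fold), G6pc 8.69 and 3.82 (29.2-fold), and Slc2a2 10.47 and 5.83 (24.9-fold) in Lgr5 Low and Lgr5 High cells. On the Lgr5 High array these 4 genes lay below the array median of 6.17, and G6pc below the lower quartile of 4.05; how much of such dim values is background is not known, so their folds are estimates without an order. Treh followed with 10.74 in Lgr5 Low and 7.10 in Lgr5 High (12.5-fold), and Slc2a5 with 9.58 and 7.21 (5.18-fold). The shallow genes were shallow here too: Khk read 12.38 in Lgr5 Low and 11.15 in Lgr5 High (2.35-fold), and Slc5a1 12.65 and 11.56 on its first probe set (2.12-fold) and 12.80 and 12.02 on its second (1.71-fold). Fbp1 read 12.39 in Lgr5 Low and 12.29 in Lgr5 High. This difference of 0.10 log2 lay at percentile 57.36 of all probe sets, and its sign reversed with quantile normalization.

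**Figure D3:**
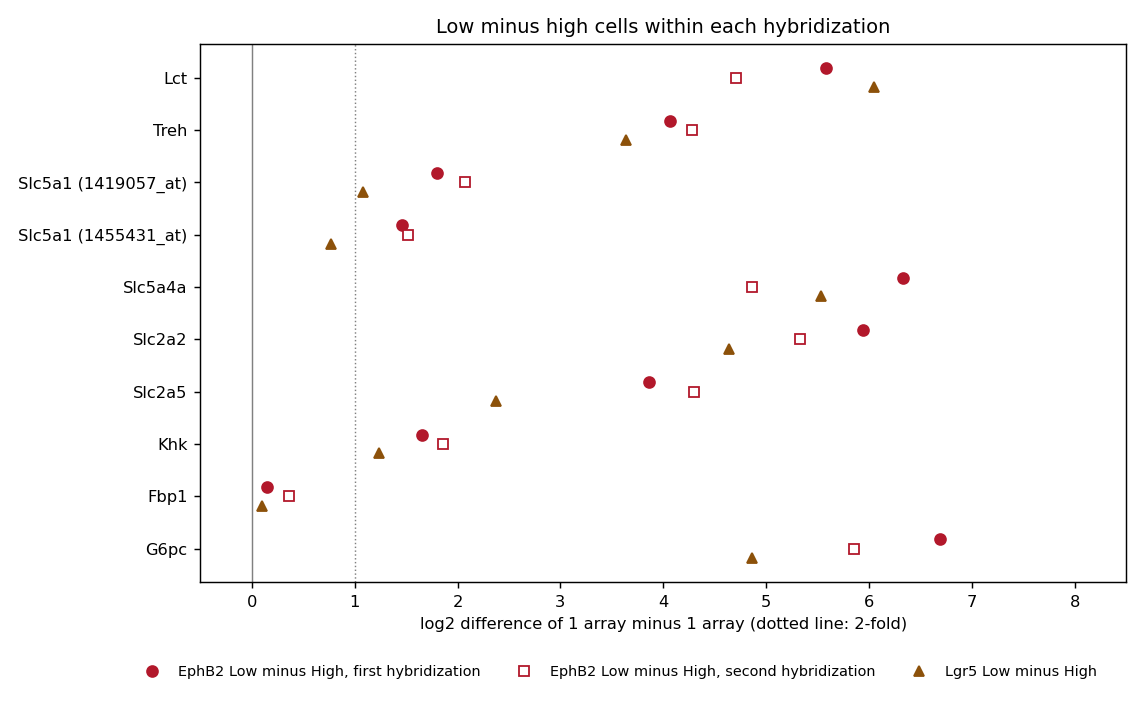
Log2 difference of low minus high cells for each of the 10 probe sets, from 1 array minus 1 array: EphB2 in the first hybridization (filled circles), EphB2 in the second (open squares) and Lgr5 (triangles); the solid line is no difference and the dotted line 2-fold. The differences of Fbp1 are the smallest and stay between 0.10 and 0.36 log2.

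For the promoters, 300 bases of the reference genome around each gene's start were read for all 9 genes (RefSeq, GRCm38.p6, 250 bases before the start and 50 after). The windows of 4 genes are shown: 3 of the steep group, of which Lct and G6pc held matches and Slc2a2 held none, and Fbp1, whose difference did not pass the test. They lie at chr1:128328269-128328568 on the minus strand for Lct, chr11:101367466-101367765 on the plus strand for G6pc, chr3:28697653-28697952 on the plus strand for Slc2a2 and chr13:62888233-62888532 on the minus strand for Fbp1, and each is written 5′ to 3′ along its gene. Capitals mark exact matches, on either strand, to 6 short motifs: TATAAA of the TATA box, GTTAAT of the HNF1 site, TTTATG of CDX factors, AGATAA of GATA factors, CAAAGTC of the HNF4 site and the E-box CACGTG.
Lct: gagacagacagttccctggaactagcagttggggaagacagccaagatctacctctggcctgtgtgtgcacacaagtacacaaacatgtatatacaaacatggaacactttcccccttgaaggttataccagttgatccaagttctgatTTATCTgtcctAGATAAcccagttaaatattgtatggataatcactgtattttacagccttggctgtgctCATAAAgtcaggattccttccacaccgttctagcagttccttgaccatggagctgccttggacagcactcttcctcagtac
G6pc: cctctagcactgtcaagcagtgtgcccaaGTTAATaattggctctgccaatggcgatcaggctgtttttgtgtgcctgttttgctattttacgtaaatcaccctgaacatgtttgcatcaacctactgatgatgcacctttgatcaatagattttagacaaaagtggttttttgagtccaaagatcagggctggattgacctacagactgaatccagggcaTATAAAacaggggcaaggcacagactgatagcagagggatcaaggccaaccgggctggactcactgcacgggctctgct
Slc2a2: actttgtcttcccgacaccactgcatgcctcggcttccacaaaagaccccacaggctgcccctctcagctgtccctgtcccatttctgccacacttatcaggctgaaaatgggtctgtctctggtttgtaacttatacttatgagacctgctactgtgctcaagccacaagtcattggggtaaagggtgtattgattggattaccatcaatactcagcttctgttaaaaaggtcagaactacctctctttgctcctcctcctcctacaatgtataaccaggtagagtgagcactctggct
Fbp1: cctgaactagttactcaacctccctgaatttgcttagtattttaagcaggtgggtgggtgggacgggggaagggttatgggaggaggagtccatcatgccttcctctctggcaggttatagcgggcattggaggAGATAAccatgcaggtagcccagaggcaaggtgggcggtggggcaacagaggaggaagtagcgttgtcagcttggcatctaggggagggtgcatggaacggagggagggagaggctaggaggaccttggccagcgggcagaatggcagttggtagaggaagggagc
Lct held 2 GATA letters, at -101 and -90 from the start, and 1 CDX match at -31. G6pc held the HNF1 letters at -221 and a TATA box at -29, and Fbp1 held 1 GATA match at -116. Over the 9 windows, TATAAA was found in 2 (G6pc and Slc5a4a), GTTAAT in 3 (G6pc, Khk and Slc5a4a), TTTATG in 1, AGATAA in 2, CAAAGTC in 1 (Treh) and CACGTG in 2 (Khk and Slc5a1), and Slc2a2 and Slc2a5 held none of the 6. Among 32817 promoter windows the shares were 13.6%, 7.1%, 11.9%, 11.2%, 4.44% and 7.15% for the 6 motifs in that order. No 2 matches overlapped, and a match is a run of letters, not a measured site.

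Other genes of sugar handling moved with the members only in part. Among 19 measured sugar transporters outside the member set (of 20 listed), 4 were called higher and 3 lower in EphB2 Low than in EphB2 High, while 12 did not pass; the median was 0.04 log2. Of all lead probe sets 13.2% were called higher and 19.6% lower, and the lists below are to be read against these shares; the share of these transporters that was called is near them. The 4 were Slc5a4b (5.70 ± 0.43 log2, adjusted p = 0.00101), Slc5a11, a sodium-coupled inositol carrier (5.46 ± 0.13, adjusted p = 0.000235), Slc2a9, a urate carrier (3.17 ± 0.19, adjusted p = 0.00061), and Slc5a9, a mannose carrier (1.88 ± 0.22, adjusted p = 0.00314). Slc45a4 (-0.88 log2, adjusted p = 0.00668), Slc2a13 (-1.18, adjusted p = 0.0195) and Slc50a1 (-0.70, adjusted p = 0.0422) were lower in EphB2 Low, the last 2 with calls that were lost when single arrays were left out (adjusted p up to 0.103 and 0.182). Slc5a11 was also the only one of the 19 called between EphB2 Medium and EphB2 High (2.24 log2, adjusted p = 0.0231), a call lost whichever array was left out. Of 6 further listed glycosidases 2 were measured: Mgam, the maltase of the brush border, differed by 0.63 ± 0.13 log2 between Low and High (adjusted p = 0.0184, and 0.0962 without EphB2 High replicate 2), and the amylase gene Amy1 by -0.16 log2 (adjusted p = 0.695). Sucrase-isomaltase, encoded by Sis, was on that list but not among the 2 measured, so it was not analysed here. Of the 68 measured genes in these lists 37 had further probe sets, 66 in all, of which 10 had a Low minus High difference of opposite sign to the lead probe set, in 0 cases with both called. The sizes could differ by probe set. A further probe set gave 0.77 log2 for Pck1 (lead 4.10), 1.08 for Pfkfb3 (lead 3.30), 0.90 for Hkdc1 (lead 2.82) and 3.06 for Pfkp (lead 1.72). Mdh1, not called on its lead (0.42 log2), had a further probe set called at 1.85 log2.

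Of 9 measured gluconeogenesis genes outside the member set (of 10 listed), 4 were higher and 2 lower in EphB2 Low, with a median of 0.42 log2. Pck1, the cytosolic phosphoenolpyruvate carboxykinase, was 4.10 ± 0.27 log2 higher (adjusted p = 0.000703), while Pck2, its mitochondrial counterpart, fell by 2.06 log2 (adjusted p = 0.00316). Slc37a4, which carries glucose 6-phosphate to G6pc, was 1.22 ± 0.16 log2 higher (adjusted p = 0.00402) and Pcx, pyruvate carboxylase, 0.98 ± 0.14 higher (adjusted p = 0.00538). Fbp2, the relative and chromosomal neighbour of Fbp1, differed by 0.45 ± 0.12 log2 (adjusted p = 0.043), a call lost whichever array was left out (up to 0.178), and G6pc3, the widely expressed glucose-6-phosphatase, by -0.81 ± 0.16 (adjusted p = 0.016, up to 0.0953). Pck1 and G6pc were thus higher in EphB2 Low, while their relatives Pck2 and G6pc3 were lower there. G6pc2, another relative of G6pc, did not pass (0.13 log2, limma, adjusted p = 0.607). Fbp1 and Fbp2, at 0.25 and 0.45 log2, did not show such an opposition.

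Of 4 measured fructose genes (of 8 listed), 3 were higher in EphB2 Low than in EphB2 High: Tkfc, the triokinase of fructose breakdown (1.99 ± 0.16 log2, adjusted p = 0.00133), and Akr1b8 and Glyctk (1.14 and 1.08 log2, adjusted p = 0.0272 and 0.0226, both lost without single arrays at up to 0.128 and 0.107). Aldh1b1 stood at -0.33 log2 (adjusted p = 0.109). Of 6 measured galactose genes (of 8) 2 were higher: Galm, which converts the sugar's ring form (0.94 ± 0.14 log2, adjusted p = 0.00548), and Pgm1 (0.97 ± 0.17, adjusted p = 0.00998, and 0.0592 without EphB2 High replicate 1). Among 12 measured glycolytic counterparts (of 14), 7 were higher and 1 lower in EphB2 Low. Pfkfb3 (3.30 ± 0.19 log2, adjusted p = 0.000544) and Pfkfb4 (1.92 ± 0.14, adjusted p = 0.000921), which set the level of fructose 2,6-bisphosphate, the hexokinase relative Hkdc1 (2.82 ± 0.22, adjusted p = 0.00108) and the phosphofructokinase Pfkp (1.72 ± 0.19, adjusted p = 0.00278) were among the higher ones, and Hk2 fell by 1.31 log2 (adjusted p = 0.00956, and 0.051 and 0.0572 without either High array).

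Of 16 measured regulators (of 18), 6 were higher and 1 lower in EphB2 Low than in EphB2 High. Creb3l3, a transcription factor of liver and intestine, was 3.61 ± 0.31 log2 higher (adjusted p = 0.00142), the coactivator Ppargc1a, known for raising gluconeogenic genes in liver, 2.04 ± 0.15 (adjusted p = 0.00101), Hnf4g 1.67 ± 0.14 (adjusted p = 0.00147) and Mlx, the partner of the sugar-responsive factor Mlxipl, 0.90 ± 0.13 (adjusted p = 0.00555). Nr1h4 (1.22 log2, adjusted p = 0.00965) and Gata5 (0.84 log2, adjusted p = 0.00669) were the others, and Nr1h4 had an adjusted p of 0.0552 without EphB2 Low replicate 2. Cdx1 fell by 0.73 log2 (adjusted p = 0.00901, and 0.062 without EphB2 High replicate 2). On their lead probe sets Mlxipl differed by 0.34 log2 (adjusted p = 0.111), Hnf4a by -0.07 (adjusted p = 0.725) and Cdx2 by -0.35 (adjusted p = 0.252). Further probe sets of Hnf4a gave -0.90, -0.63 and 0.30 log2 (limma, adjusted p = 0.0505, 0.0869 and 0.278). A further probe set of Cdx2 gave -0.85 log2 (limma, adjusted p = 0.0808).

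**Figure D4:**
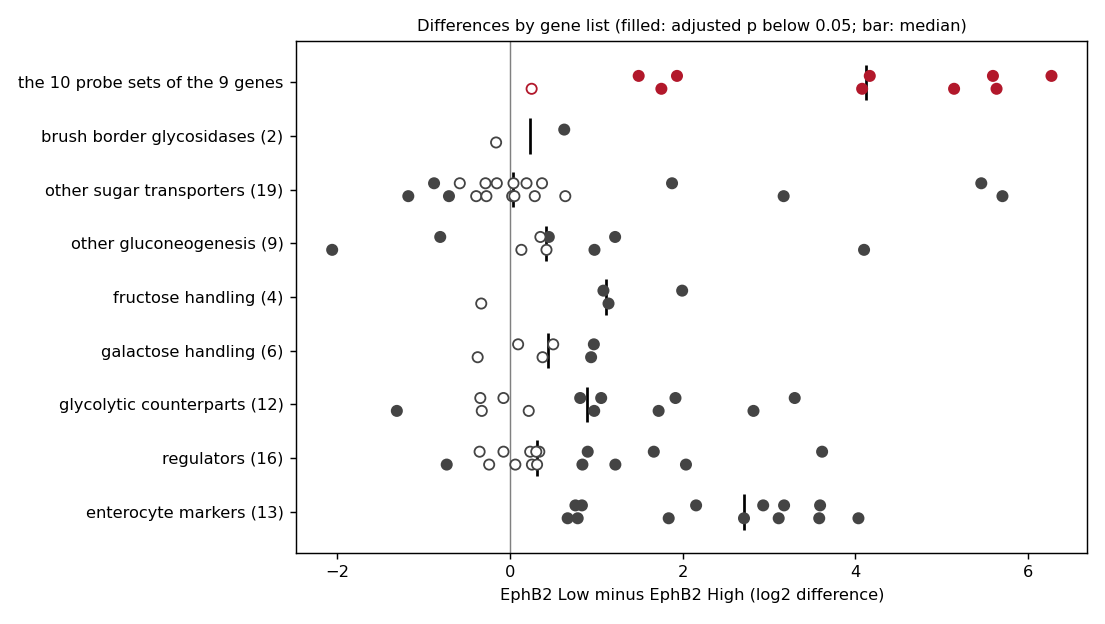
Log2 difference of EphB2 Low minus EphB2 High for the lead probe set of every measured gene, by list; each point is 1 gene (1 probe set in the top row), filled where its adjusted p was under 0.05, and short vertical bars are list medians. In the top row 9 of 10 points are filled, between 1.49 and 6.27 log2, and the open one is Fbp1, while the other sugar transporters spread around a median of 0.04 log2.

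The genes whose array profiles were most like each member's were found by the root mean square log2 difference over the 8 arrays, each profile centred on its own mean, among 18185 genes. All 8 arrays and both sorts enter this measure, so it describes these libraries. For G6pc the closest was Cyp2b10, at 0.09 log2, and then Slc5a12, a monocarboxylate carrier, at 0.30. For Lct they were the peptide carrier Slc15a1 and the amino acid carrier Slc6a19, both at 0.42, and for Slc5a4a Bst1 at 0.29 and Slc6a19 at 0.34. Slc2a2 lay closest to Nat8f5 and Cyp2b10 (both 0.26), Slc2a5 to Spns2 (0.15) and Cracd (0.16), and Treh to Pxdc1 and Cidec (both 0.18). Among the shallow genes, Slc5a1 lay closest to Nr1d1 (0.07) and Zzef1 (0.08), and Khk to Sult1b1 (0.07) and Cyp2c65 (0.10). For Fbp1, whose profile was nearly flat, they were Scube2 and Calml4 (both 0.03).

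The nearest measured protein-coding gene on each side of every member, 18 in all, included 5 that were higher in EphB2 Low than in EphB2 High, 2 that were lower and 11 that did not pass, where 13.2% of all lead probe sets were called higher and 19.6% lower. Beside Lct, which was higher, the replication helicase gene Mcm6 fell by 1.69 log2 (adjusted p = 0.00327) and Ubxn4 differed by 0.12 log2 (adjusted p = 0.572). Beside Slc5a4a, both neighbours were higher, Slc5a4b as above and Prmt2 by 2.21 ± 0.22 log2 (adjusted p = 0.00218). The other 3 higher neighbours were Cgref1 beside Khk (2.19 log2, adjusted p = 0.000761), Tnik beside Slc2a2 (0.72 log2, adjusted p = 0.013) and Fbp2 beside Fbp1, and the other lower one was Aarsd1 beside G6pc (-0.99 log2, adjusted p = 0.00651).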

How the data were processed

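RNA was extracted with Trizol, amplified isothermally and hybridized to Affymetrix arrays, per the labels' protocols. The deposited values are log2 intensities normalized by the authors with RMA, per the submitters' processing notes; the sources used here do not say if RMA was run on all 8 arrays at once. Probe sets were named by the platform annotation given with the files: 34945 named 1 gene, 932 several and 9160 none, and 34741 of the single-gene ones matched the RefSeq table. The 64 controls were left out of the tests. limma 3.58.1 in R 4.3.3 was fitted to the 6 EphB2 arrays by group, with no covariate (3 residual and 2.85 prior degrees of freedom), with Benjamini-Hochberg adjustment over 45037 probe sets and a threshold of 0.05; the fit was tested on simulated data. With 2 arrays against 2, an exact permutation test cannot go below 0.333. A gene's lead probe set is its brightest over the EphB2 arrays. From each list up to 4 genes with the smallest p between EphB2 Low and EphB2 High are named, besides genes behind counts of 5 or fewer; likeness names 2 genes per member. Sis, Mlxipl, Hnf4a, Cdx2, G6pc2, G6pc3, Aldh1b1 and the neighbours' values were singled out for their roles. The members and lists were chosen with earlier results of these data known. Same-numbered arrays share a hybridization, per the labels, and their deviations from group means correlated at 0.21 (Low and Medium), 0.13 (Low and High) and 0.45 (Medium and High) over 18194 genes. Alternatives were the replicate block, quantile normalization, median centring, a filter on dim probe sets (above the array median on at least 2 arrays), lead probe sets only, an intensity trend in eBayes, all 8 arrays in the fit, a 1.5-fold limit for the Lgr5 arrays and leaving out each of 6 arrays.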

Additional observations from a re-analysis of the deposited data

How the results depend on the processing

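With 2 arrays per EphB2 group and 1 per Lgr5 group, the number of arrays limits precision, and a lone array left in a group is assumed to vary like the others. Between EphB2 Low and EphB2 High, the members' direction and side of the threshold held in 129 of 129 refits; all probe sets called numbered 12335, 6792 with lead probe sets only, and 5898 to 10728 when 1 array was left out (7617 without EphB2 High replicate 1, 5898 without High replicate 2, 7727 without Low replicate 2). Between EphB2 Low and EphB2 Medium, 109 of 129 member values kept their side and 20 lost the call; members called numbered 9, and 2 to 9 when 1 array was left out, and all probe sets called 6900, 4489 with lead probe sets, and 531 (without EphB2 Medium replicate 2) to 6240, with 908 without Medium replicate 1, 2084 without Low replicate 2 and 4191 without either High array. Between EphB2 Medium and EphB2 High, 90 of 129 values kept their side, 32 lost the call and 7 gained it. With the replicate block, 3 members and 81 probe sets were called in place of 5 and 135, and the block changed no other member's call. All probe sets called there numbered 274 with the dim filter, 248 with lead probe sets and 470 with an intensity trend, which called 9 members; leaving out any 1 array gave 0 members and 0 probe sets. The test of unequal steps called 0 probe sets, and 1 with lead probe sets (Gsdma, 3.98 log2, adjusted p = 0.0332, chosen after its value was seen). Its member estimates reversed in 5 of 129 refits, none called: 0.61 log2 for Slc5a4a and 0.51 for G6pc without EphB2 High replicate 1, 0.098 for G6pc and 0.031 for Khk without EphB2 Low replicate 1, and 0.051 for Khk without EphB2 High replicate 2, against -0.25, -0.06 and -0.01 for Slc5a4a, G6pc and Khk with all arrays; over the 6 arrays left out in turn they ran from -1.12 to 0.61 for Slc5a4a, -0.62 to 0.51 for G6pc and -0.073 to 0.051 for Khk. In the Lgr5 sort Fbp1 was at -0.0081 log2 with quantile normalization, against 0.10. Fitting all 8 arrays gave the same values by construction, since the single Lgr5 arrays add no spread. The cause of these shifts was not tested.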
